A study of Mus musculus with 30 samples.

Results

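The genes described here are 10 receptors and factors of regulatory T cells and of T cell costimulation, Cd4, Foxp3, Il2ra, Ikzf2, Icos, Tnfrsf4, Tnfrsf9, Tnfrsf18, Cd27 and Cd28. They were picked by name and Ensembl identifier, not by their values, out of the 53431 genes of the count table, and all 10 were found there. RNA-seq was run on 30 libraries from CT-26 and Colon 26, carcinoma lines of the mouse colon: 3 cultures of each line, and 4 tumors of each model at nominal sizes of 100, 400 and 800 mm3. The tumors grew from cells injected into the flank of BALB/c females, of an age the labels do not give, and each model is a single cell line. No tumor carries the name of an antibody in its labels, although the shared treatment text describes dosing with antibodies to CTLA-4, PD-1 and PD-L1, so the tumors are described here by model and size only. Library totals ranged from 22923606 to 35681914 counts on genes in tumors and from 21384730 to 39722586 in cultures. The cultures of Colon 26 were sequenced more deeply than those of CT-26 and carry library numbers of a separate series, so batch and model cannot be told apart in cultures. Among the tumors, CT-26 replicate 2 of 100 mm3 had the most Ptprc, the gene of the leukocyte protein CD45, at 186 CPM (counts scaled by TMM library sizes), and CT-26 replicate 3 of 400 mm3 the least, at 43.3. The latter was also low in the macrophage genes Csf1r and Adgre1.

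A regulatory T cell is a CD4 T cell that holds other T cells back and is defined by the transcription factor Foxp3. It carries CD25, the alpha chain of the interleukin-2 receptor encoded by Il2ra, at high levels, and in many of these cells the factor Helios, encoded by Ikzf2, is present. A T cell needs a further signal beside its antigen receptor, and it receives it through the immunoglobulin-like receptors CD28 and ICOS or through receptors of the tumor necrosis factor family, which are OX40 (Tnfrsf4), 4-1BB (Tnfrsf9), GITR (Tnfrsf18) and CD27. Regulatory T cells of tumors often carry OX40, GITR, ICOS and 4-1BB, while CD27 and CD28 are found on most resting T cells. In RNA from whole tumors, fewer cells of a type and less RNA per cell cannot be told apart.

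Several of these genes lie next to each other in the mouse genome (GRCm38, GENCODE annotation). Tnfrsf4 at chr4:156013843-156016612 and Tnfrsf18 at chr4:156026164-156028895 are 9551 bases apart on the same strand with no protein-coding gene between them. Cd28 at chr1:60716800-60773359 and Icos at chr1:60977927-61000320 are separated by 204567 bases that hold a single protein-coding gene, Ctla4. Tnfrsf9 lies at chr4:150914562-150946102, Foxp3 at chrX:7573644-7595245, Il2ra at chr2:11642807-11693193, Ikzf2 at chr1:69531214-69687245, Cd4 at chr6:124864692-124888221 and Cd27 at chr6:125232622-125237010. RefSeq promoters of GRCm38.p6, from 250 bases before to 50 bases after a start, were matched for 6 of the 10 genes (Foxp3, Il2ra, Tnfrsf4, Tnfrsf9, Tnfrsf18 and Cd27) and not for Cd4, Ikzf2, Icos and Cd28. Those of Foxp3, Tnfrsf4 and Tnfrsf18 are shown because their transcripts moved together between tumors, and those of Tnfrsf9 because it alone was transcribed at a high level by the tumor cells in culture. They are written 5' to 3', all on the plus strand, and capitals mark matches on either strand to a kappaB-like motif (GGGA and CC parted by any 4 bases), TGANTCA (AP-1-like) and TTCNNNGAA (STAT-like).
Foxp3, start 1, chrX:7579426-7579725: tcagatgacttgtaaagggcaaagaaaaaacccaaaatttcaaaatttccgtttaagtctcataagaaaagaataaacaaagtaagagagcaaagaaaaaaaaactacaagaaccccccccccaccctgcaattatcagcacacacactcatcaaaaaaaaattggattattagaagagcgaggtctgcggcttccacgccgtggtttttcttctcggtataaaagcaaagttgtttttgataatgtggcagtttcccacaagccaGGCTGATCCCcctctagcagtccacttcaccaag
Foxp3, start 2, chrX:7580233-7580532: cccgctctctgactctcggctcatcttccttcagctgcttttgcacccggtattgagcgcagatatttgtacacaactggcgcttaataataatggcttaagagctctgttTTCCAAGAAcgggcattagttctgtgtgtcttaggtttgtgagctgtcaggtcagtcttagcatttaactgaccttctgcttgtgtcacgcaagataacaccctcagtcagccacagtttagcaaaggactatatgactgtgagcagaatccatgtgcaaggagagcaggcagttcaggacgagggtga
Tnfrsf4, chr4:156013445-156013744: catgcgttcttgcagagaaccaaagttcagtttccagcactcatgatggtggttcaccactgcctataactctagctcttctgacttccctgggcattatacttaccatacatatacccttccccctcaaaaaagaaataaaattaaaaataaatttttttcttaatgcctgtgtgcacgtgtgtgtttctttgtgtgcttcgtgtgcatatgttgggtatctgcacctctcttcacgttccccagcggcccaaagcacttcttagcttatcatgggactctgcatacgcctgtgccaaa
Tnfrsf18, chr4:156026072-156026371: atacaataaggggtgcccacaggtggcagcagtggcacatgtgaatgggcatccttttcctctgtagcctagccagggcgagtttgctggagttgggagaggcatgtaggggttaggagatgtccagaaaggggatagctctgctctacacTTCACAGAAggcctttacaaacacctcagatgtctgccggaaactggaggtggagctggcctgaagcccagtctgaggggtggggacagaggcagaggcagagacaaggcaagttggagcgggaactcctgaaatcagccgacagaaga
Tnfrsf9, start 1, chr4:150919905-150920204: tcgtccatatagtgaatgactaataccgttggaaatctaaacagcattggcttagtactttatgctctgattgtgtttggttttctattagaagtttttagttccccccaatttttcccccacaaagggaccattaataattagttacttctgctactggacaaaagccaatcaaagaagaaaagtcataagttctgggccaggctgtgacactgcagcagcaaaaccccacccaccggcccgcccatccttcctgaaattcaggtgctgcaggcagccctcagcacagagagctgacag
Tnfrsf9, start 2, chr4:150927749-150928048: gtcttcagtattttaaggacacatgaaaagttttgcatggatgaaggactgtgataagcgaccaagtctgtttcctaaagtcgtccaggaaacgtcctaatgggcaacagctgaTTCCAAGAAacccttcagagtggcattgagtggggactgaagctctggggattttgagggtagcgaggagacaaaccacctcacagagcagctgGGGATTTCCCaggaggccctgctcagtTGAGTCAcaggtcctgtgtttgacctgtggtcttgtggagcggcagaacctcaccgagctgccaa
The second start of Tnfrsf9 held 1 match to each of the 3 motifs, and the other windows shown held at most 1 match in all. Of 32851 RefSeq promoters of 300 bases, 20.7% held the kappaB-like letters, 7.81% the AP-1-like and 8.3% the STAT-like, so each match is a description of the sequence and no evidence of a bound factor. The NFAT core TGGAAA, not set in capitals, was in 1 window each of Foxp3 (start 2), Tnfrsf4 and Tnfrsf9 (start 1), and in 21.4% of all promoters.

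Per length, Tnfrsf9 stood far above the other genes in the tumors. Its median over the 24 tumors was 32.8 FPKM (fragments scaled by gene length and library total, as deposited, range 9.56 to 109). The next were Tnfrsf18 at a median of 1.75 FPKM and Tnfrsf4 at 1.35 FPKM. Cd27 (0.857), Icos (0.838), Cd4 (0.824) and Il2ra (0.708 FPKM) had medians close to each other and ranges that overlapped almost wholly. Foxp3 (0.377), Cd28 (0.360) and Ikzf2 (0.205 FPKM) were lowest. Behind these levels stood few reads: 7 to 101 counts of Foxp3, 13 to 142 of Cd4 and 11 to 256 of Cd28 per tumor, against 567 to 6125 of Tnfrsf9, so a change in the scarce genes had to be large to be detectable.

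**Figure D1:**
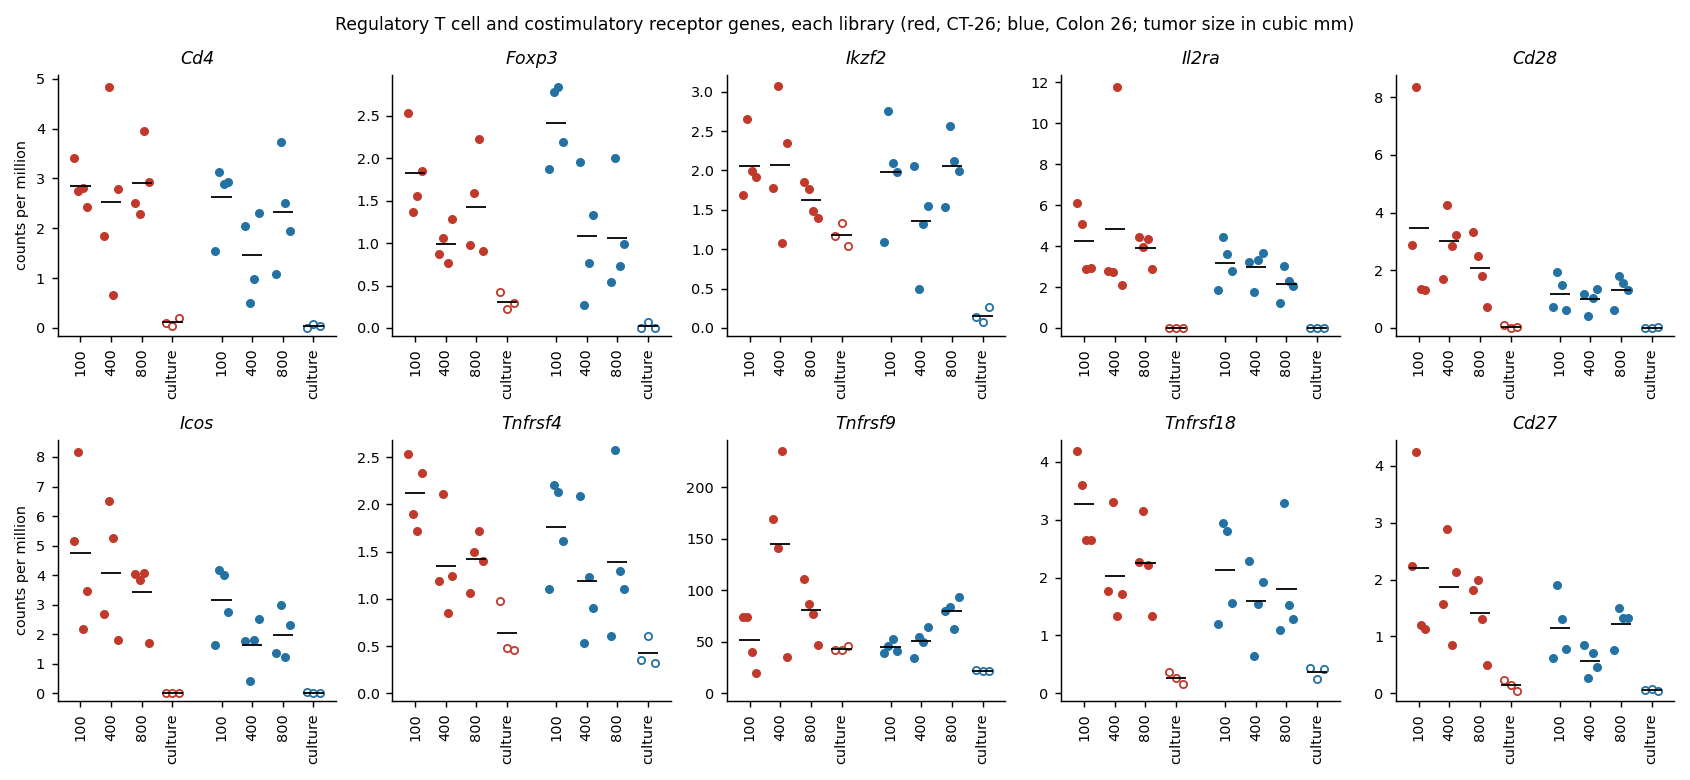
Level of each of the 10 genes in CPM (y axis, linear, a scale of its own in each panel) by group (x axis, nominal tumor size or culture), with CT-26 in red and Colon 26 in blue. Each point is 1 library, open for cultures, and black lines are group means. Cd4, Il2ra, Icos, Cd27 and Cd28 lay near 0 in the cultures of both lines.

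The cultures give the background of the tumor cells themselves. Of the genes, Tnfrsf9 alone was abundant there, at 41.7, 41.9 and 46.2 CPM in CT-26 and at 22.4, 21.99 and 21.3 CPM in Colon 26. The culture mean was 57.0% of the median of the 12 tumors in CT-26 and 40.8% in Colon 26, and 3 of the 12 CT-26 tumors had less Tnfrsf9 than a culture. Ptprc reached at most 0.209 CPM in these cultures, and the T cell receptor gene Cd3e at most 0.0371 CPM. Tnfrsf9 was lower in Colon 26 than in CT-26 cultures by a log2 fold change of -0.93 (SE 0.05, adjusted p = 3.5e-11), which is below the 2-fold limit for a call, and 82.6% of all genes had an adjusted p of at most 0.1 there at any fold.
Ikzf2 was present in CT-26 cultures at 1.16, 1.34 and 1.04 CPM, and in Colon 26 cultures at 0.135, 0.0722 and 0.268 CPM. The groups did not overlap, and Ikzf2 was the 1 gene called lower of the 4 that passed the filter on low counts there, with a log2 fold change of -2.82 (SE 0.37, adjusted p = 3.0e-06), where 22.9% of the 14334 genes tested were called in either direction and 41.9% had Colon 26 wholly below CT-26. The CT-26 culture mean of Ikzf2 was 65.1% of the CT-26 tumor median, against 7.99% in Colon 26, and the share of Ikzf2 RNA from leukocytes was not tested. Tnfrsf4 (39.8% and 33.6% of the tumor median) and Tnfrsf18 (10.8% and 23.4%) also had reads in both lines. Foxp3 had 6 to 9 counts in each CT-26 culture and 0 to 3 in each Colon 26 culture. Its culture mean was 23.4% of the tumor median in CT-26 and 1.5% in Colon 26. Its exons overlap those of Flicr on the same strand and of Ppp1r3f, Gm36995 and Ccdc22 on the other, and whether the counting used strand is not given in the sources used here, so reads of these genes cannot be told apart from its own. Il2ra had 0 counts in all 6 cultures and Icos at most 0.0271 CPM, and for Cd4, Cd27 and Cd28 the culture mean was 0.649 to 8.31% of the tumor median.

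Colon 26 and CT-26 tumors were compared at each size to ask whether the models differ in regulatory T cells and in receptors of costimulation. Cd27, Cd28, Icos and Tnfrsf9 were lower in Colon 26 at 400 mm3, while Foxp3 and Cd4 were not called at any size. A gene was called where edgeR's quasi-likelihood test gave an adjusted p of at most 0.1 (Benjamini-Hochberg over all genes tested) and the log2 fold change, Colon 26 over CT-26, was at least 1 in size. At 100 mm3, 1 of the 10 genes was called, Cd28, which was lower, beside 13.2% of all 15406 genes and 7.06% that were lower. At 400 mm3, 4 of the 10 were called, all lower (Cd27, Cd28, Icos and Tnfrsf9), beside 14.3% of 15241 genes in either direction and 7.79% that were lower. At 800 mm3 none of the 10 was called by edgeR or by DESeq2, beside 14.1% of 15521 genes and 7.62% that were lower. There 2 of them, Il2ra and Icos, had an unadjusted p under 0.05, and both had an adjusted p of at most 0.1 at any fold, as did 59.4% of all genes. In a single fit of all 24 tumors with size as a covariate, Cd28 alone was called, beside 14.6% of 16487 genes and 7.75% that were lower, and 5 of the 10 had an adjusted p of at most 0.1 at any fold, as did 72% of all genes. The median log2 fold change of the 10 genes was -0.35, -0.75 and -0.32 at the 3 sizes, and that of all genes tested lay within 0.03 of 0 at each size. These genes share libraries and cells and are not independent of each other.

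**Figure D2:**
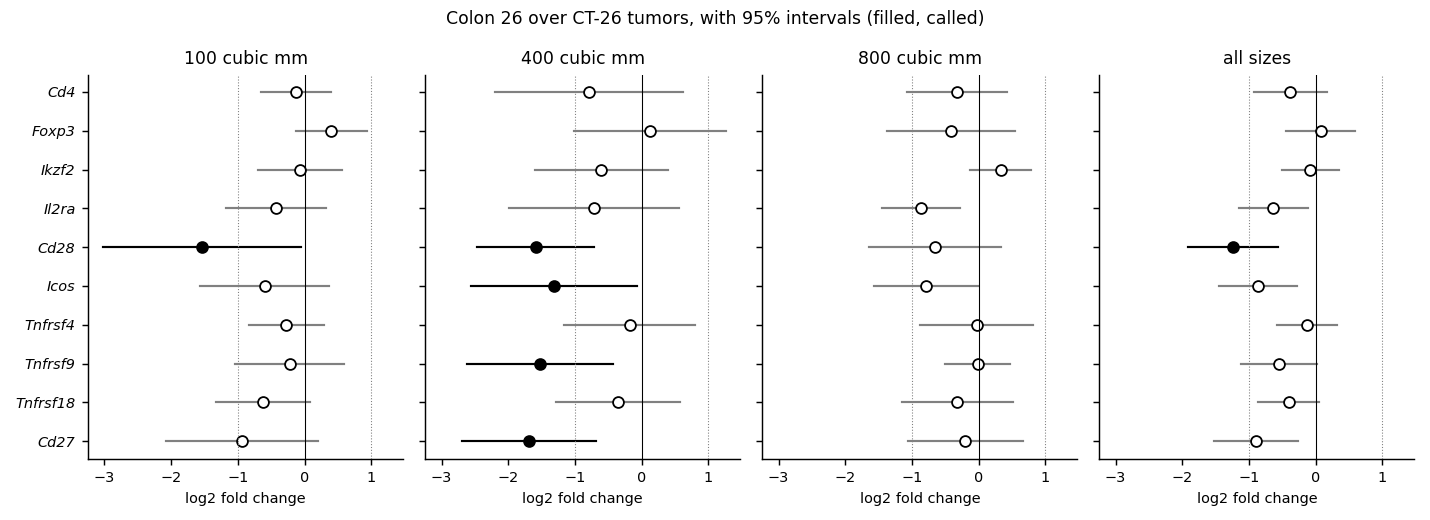
Log2 fold change of Colon 26 over CT-26 tumors (x axis) of each gene (y axis), in 1 panel for each size and 1 for all 24 tumors. Points are estimates of edgeR and lines their 95% intervals, filled points were called and dotted lines mark a 2-fold difference; Foxp3 lies at 0.07 over all sizes, while Cd28 lies at -1.24.

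Foxp3 was at 2.53, 1.37, 1.56 and 1.85 CPM in the CT-26 tumors of 100 mm3, and at 1.87, 2.78, 2.85 and 2.19 CPM in the Colon 26 tumors of that size. At 400 mm3 it was at 0.867, 1.06, 0.768 and 1.28 CPM in CT-26 and at 1.95, 0.265, 0.769 and 1.34 CPM in Colon 26. At 800 mm3 it was at 0.984, 1.59, 2.22 and 0.904 CPM in CT-26 and at 0.543, 2.002, 0.727 and 0.996 CPM in Colon 26. The models overlapped at every size, and the tumors of 100 mm3 held the highest value of each model. Over all sizes the difference was 0.07 (95% interval -0.45 to 0.59, adjusted p = 0.81), so a 2-fold difference in the mean over sizes lies outside the interval, in either direction. That mean joins values of opposite sign, and it includes the culture background given above. The difference was 0.40 (95% interval -0.13 to 0.93) at 100 mm3, 0.13 (95% interval -1.01 to 1.27) at 400 mm3 and -0.41 (95% interval -1.37 to 0.54) at 800 mm3. A 2-fold difference lies within the interval at 400 mm3, and a 2-fold lower level in Colon 26 within that at 800 mm3. With 1 tumor left out, the edgeR difference was 0.28 to 0.61 at 100 mm3 (lowest adjusted p = 0.046). It was -0.32 to 0.45 at 400 mm3 (lowest adjusted p = 0.35) and -0.91 to -0.12 at 800 mm3 (lowest adjusted p = 0.077). Foxp3 was called in none of these fits.
Cd4, which T helper cells share with regulatory T cells and with some myeloid cells, ranged from 0.652 to 4.84 CPM (median 2.76) in CT-26 tumors and from 0.493 to 3.73 CPM (median 2.18) in Colon 26 tumors. Its difference over all sizes was -0.38 (95% interval -0.93 to 0.17, adjusted p = 0.21). Ikzf2 ranged from 1.07 to 3.07 CPM (median 1.81) in CT-26 and from 0.493 to 2.75 CPM (median 1.99) in Colon 26. Its difference of -0.08 (95% interval -0.50 to 0.35) was not called, with the culture background given above.
Il2ra, the CD25 chain, was at 4.43, 3.94, 4.35 and 2.90 CPM in CT-26 tumors of 800 mm3 and at 1.21, 3.05, 2.28 and 2.03 CPM in Colon 26 tumors. Only the lowest CT-26 tumor lay within the Colon 26 range. The log2 fold change was -0.86 (SE 0.26, adjusted p = 0.019), which passed the test but not the 2-fold limit. At 400 mm3 a single CT-26 tumor, replicate 3, held 11.8 CPM against 2.10 to 2.76 CPM in the other 3, and the difference there was -0.71 (95% interval -1.98 to 0.57). Without that tumor the difference at 400 mm3 turned to 0.24. Over all sizes Il2ra was lower in Colon 26 by -0.64 (SE 0.25, adjusted p = 0.028), again short of 2-fold, and by -0.38 (adjusted p = 0.095) without that same tumor.

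Cd28, the main receptor of costimulation on T cells, was at 1.70, 4.26, 2.84 and 3.21 CPM in CT-26 tumors of 400 mm3 and at 1.18, 0.417, 1.05 and 1.34 CPM in Colon 26 tumors. Every CT-26 tumor of this size lay above every Colon 26 tumor, and the log2 fold change was -1.59 (SE 0.39, adjusted p = 0.0096). At 100 mm3 it was at 2.87, 8.37, 1.36 and 1.30 CPM in CT-26 and at 0.711, 1.95, 1.498 and 0.619 CPM in Colon 26, with 1 CT-26 tumor, replicate 2, far above the rest. The groups overlapped there, and the call at 100 mm3 (-1.54, SE 0.66, adjusted p = 0.081) was lost without that tumor, with a log2 fold change of -0.61, and held in 3 of 8 fits that left out 1 tumor. At 800 mm3 the difference was -0.66 (95% interval -1.65 to 0.33) and was not called. Over all sizes it was -1.24 (SE 0.33, adjusted p = 0.0020), and it kept an adjusted p of at most 0.0047 when any single tumor was left out, but fell to -0.97 without CT-26 replicate 2 of 100 mm3 and so missed the 2-fold limit.
Icos, the inducible member of the same family, was at 2.68, 6.51, 5.26 and 1.80 CPM in CT-26 and at 1.78, 0.417, 1.82 and 2.53 CPM in Colon 26 at 400 mm3. The groups overlapped, and the call there (-1.31, SE 0.55, adjusted p = 0.082) held in 3 of 8 fits that left out 1 tumor. It was lost without CT-26 replicate 2 or 3 or Colon 26 replicate 1, 2 or 3, with an adjusted p up to 0.21. At 800 mm3 it was lower in Colon 26 by -0.79 (SE 0.35, adjusted p = 0.081) and over all sizes by -0.87 (SE 0.28, adjusted p = 0.0091), both short of 2-fold.

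Of the 4 receptors of the tumor necrosis factor family, Cd27 and Tnfrsf9 were called lower in Colon 26 at 400 mm3, while Tnfrsf4 and Tnfrsf18 were called at no size. Cd27 was at 1.58, 2.90, 0.844 and 2.14 CPM in CT-26 and at 0.842, 0.265, 0.708 and 0.470 CPM in Colon 26 at 400 mm3. The groups were adjacent but did not overlap, as for Cd28, and 22% of all genes tested had Colon 26 tumors wholly below CT-26 tumors at this size. The log2 fold change of Cd27 was -1.69 (SE 0.45, adjusted p = 0.014) and the call held in all 8 fits that left out 1 tumor. At 100 mm3 it was -0.94 (95% interval -2.08 to 0.20) and -0.39 without CT-26 replicate 2, at 800 mm3 -0.20 (95% interval -1.05 to 0.66), and over all sizes -0.90 (SE 0.30, adjusted p = 0.012).
Tnfrsf9 was at 169, 141, 235 and 34.9 CPM in CT-26 tumors of 400 mm3 and at 34.1, 54.6, 49.97 and 64.7 CPM in Colon 26 tumors. Of the CT-26 tumors, 3 lay above all of Colon 26, and replicate 4 lay within its range. The log2 fold change was -1.52 (SE 0.48, adjusted p = 0.030), and the call held in all 8 fits that left out 1 tumor. At 100 mm3 it was at 74.4, 73.5, 40.05 and 19.5 CPM in CT-26 and 38.7, 45.6, 52.7 and 41.5 CPM in Colon 26, and at 800 mm3 at 111, 86.2, 77.4 and 47.0 CPM and 79.4, 83.3, 62.6 and 93.1 CPM. The models overlapped at both of these sizes, with differences of -0.22 (95% interval -1.04 to 0.60) and -0.02 (95% interval -0.51 to 0.47).
Tnfrsf4 ranged from 0.844 to 2.53 CPM (median 1.61) in CT-26 and from 0.531 to 2.57 CPM (median 1.26) in Colon 26, with a difference over all sizes of -0.13 (95% interval -0.58 to 0.32). Tnfrsf18 ranged from 1.34 to 4.18 CPM (median 2.46) and from 0.644 to 3.29 CPM (median 1.55), with a difference of -0.40 (95% interval -0.86 to 0.06, adjusted p = 0.11). As for Foxp3, a 2-fold difference in the mean over sizes lay outside both intervals.

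Of 13 genes of the T cell receptor complex, 4 were called lower in Colon 26 at 100 mm3, 12 at 400 mm3 and none at 800 mm3, and their median log2 fold changes were -1.14, -1.69 and -0.40. With 1 tumor left out, the counts ranged from 1 to 6, 7 to 12 and 0 to 2. They were 1 at 100 mm3 without CT-26 replicate 1 or 2, 2 without Colon 26 replicate 1 or 4, and 7 at 400 mm3 without CT-26 replicate 2. At 800 mm3, 1 of the 13 had an unadjusted p under 0.05 by edgeR. In cultures 2 of the 13 were tested, and 1 was called higher in Colon 26 and 1 lower, beside 22.9% of all genes. The 13 genes summed to 7.64 to 8.87 CPM in CT-26 cultures and to 6.10 to 7.12 CPM in Colon 26 cultures. In tumors of 400 mm3 the sums were 21.7 to 85.9 CPM in CT-26 and 7.20 to 23.6 CPM in Colon 26. The part of the tumor cells in these sums was not tested. Cd3e, a chain of that complex, had log2 fold changes of -0.84 (SE 0.74), -1.93 (SE 0.48) and 0.01 (SE 0.42) at the 3 sizes, and the first was 0.10 without CT-26 replicate 2. Of 14 other genes of regulatory T cells, Ctla4, the inhibitory receptor that competes with CD28, was called lower at 400 mm3 (-2.25, SE 0.69, adjusted p = 0.027, and -1.29, adjusted p = 0.063, without CT-26 replicate 3, which held 14.7 CPM) and 800 mm3 (-1.52, SE 0.32, adjusted p = 0.0025). Ikzf4, a factor related to Helios, was called lower at the same sizes, and Il1rl1, the interleukin-33 receptor, at 400 mm3. Lrrc32, which encodes the surface protein GARP and is also made by endothelial cells and platelets, was called higher at all 3 sizes, with log2 fold changes from 1.48 to 2.03. Ccr8 and Gpr83 had too few counts to be tested at any size. In cultures 5 of these 14 genes were tested, and 1 was called higher in Colon 26 and 2 lower, beside 22.9% of all genes. The 14 genes summed to 115 to 121 CPM in CT-26 cultures and to 199 to 215 CPM in Colon 26 cultures, so tumor cells also express genes of this list.
Il2rb and Il2rg, the signaling chains that pair with CD25, were lower in Colon 26. Il2rb was called at all 3 sizes, from -2.04 (SE 0.28, adjusted p = 0.00044) at 400 mm3 to -1.23 (SE 0.29, adjusted p = 0.0047) at 800 mm3, and Il2rg at 100 and 400 mm3. Without CT-26 replicate 2 of 100 mm3 Il2rg was at -0.88 there and was not called. The other genes tested in this list, the kinase gene Jak3 and the factors Stat5a and Stat5b, were higher in Colon 26 at every size. The difference was 0.29 to 0.97, short of 2-fold, and the median of the 5 genes was 0.29 to 0.36. In cultures, 2 of the 5 genes of the list tested there were called higher in Colon 26 and 1 lower, beside 22.9% of all genes. The list summed to 75.9 to 81.2 CPM in CT-26 cultures and to 126 to 132 CPM in Colon 26 cultures. Il2 itself reached at most 0.162 CPM in any tumor and was not tested. The 3 natural killer cell genes tested were lower in Colon 26 at every size, and these cells carry Il2rb and Il2rg as well. The summed level of these and Klra8, which was not tested, was 4.86 to 19.6 CPM in CT-26 tumors and 0.682 to 4.99 CPM in Colon 26 tumors, and their part in the result was not tested. Mast cell genes, 4 of 4, were also called lower at every size, with sums of 23.3 to 122 CPM against 0.383 to 10.0 CPM. Both CD8 chains were called lower at 400 mm3 and in the fit over all sizes. They were not called at 100 mm3 (-1.13 and -1.05) or at 800 mm3 (-0.49 and -0.39). Of the factors of T helper lineages, Gata3 was called lower at every size and Tbx21 at 100 and 400 mm3. In cultures all 5 factors of this list were tested and called, 3 higher in Colon 26 and 2 lower, beside 22.9% of all genes. The part of the tumor cells in these differences was not tested. Ptprc was not called at any size, with log2 fold changes of -0.16 at 100 mm3 and -0.25 at 400 mm3. Of 5 macrophage genes at most 1 was called at a size, and it was Csf1r, higher at 400 mm3 (1.01, and 0.73 and not called without CT-26 replicate 3). Of 5 dendritic cell genes Zbtb46 was called higher at every size and Xcr1 lower at 400 and 800 mm3. In cultures 3 of these 5 genes were tested, and 1 was called higher in Colon 26 and 1 lower. B cell genes summed to at most 2.61 CPM in any tumor, and Cd79b, the 1 of 4 that could be tested, was called lower at every size.
Of the 7 ligands of these receptors, 4 could be tested, and none was called at any size by edgeR. Cd80 and Cd86, the ligands of CD28, Icosl and Tnfsf9 differed by -0.17 to 0.69 over the 3 sizes. At 800 mm3 all 4 had an unadjusted p under 0.05, and all were higher in Colon 26, by 0.25 to 0.47, at a size where 59.4% of all genes had an adjusted p of at most 0.1 at any fold. Tnfsf4, Tnfsf18 and Cd70 reached at most 0.392, 0.716 and 0.165 CPM in any tumor. Cd80 was also abundant in culture, where CT-26 held 67.4 ± 1.05 CPM and Colon 26 held 100.3 ± 3.31 CPM (SD, n = 3), above the 15.8 to 32.1 CPM of the tumors. Tnfsf18, the ligand of GITR, had a culture level of 2.68 ± 0.04 CPM in CT-26 against 0.275 ± 0.04 CPM in Colon 26 (SD, n = 3 each). Of 12 genes of signaling below these receptors, Relb, a subunit of NF-kappaB, was called lower at 400 mm3 (-1.13) and none was called by edgeR at the other sizes, where 7 each had an unadjusted p under 0.05. At any fold 7 and 8 of the 12 had an adjusted p of at most 0.1, beside 56.5% and 59.4% of all genes.

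The balance of Foxp3 to other T cell genes was computed as a log2 ratio of CPM within each tumor, and the models were set against each other in 9 exact permutation tests, all two-sided, which cannot give a p under 0.0286 with 4 tumors against 4. At 400 mm3 the ratio of Foxp3 to Cd3e was -1.58, -2.61, -1.10 and -1.88 in CT-26 and 0.82, -0.65, -0.94 and 0.20 in Colon 26. All 4 Colon 26 tumors lay above all CT-26 tumors, by a mean difference of 1.65, at the smallest p the test can give (exact p = 0.0286, adjusted p = 0.171 over the 9 tests). At 100 mm3 the difference was 1.06 (exact p = 0.257) and at 800 mm3 it was -0.61 (exact p = 0.229), with overlap of the models at both. The ratio of Cd8a, a chain of the CD8 receptor of killer T cells, to Foxp3 was lower in Colon 26 at 400 mm3 by a mean of -1.68 (exact p = 0.0571, adjusted p = 0.171). None of the 9 tests passed adjustment. A single test at the smallest p could not have passed it over 9 tests, so this is no evidence that the ratios were alike in the models.

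**Figure D3:**
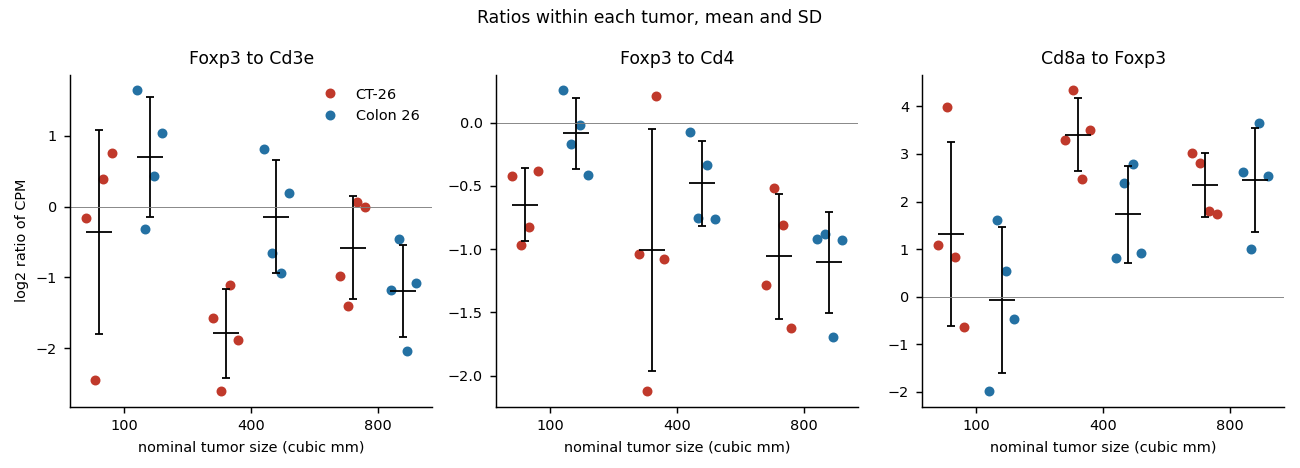
Log2 ratios of CPM within each tumor (y axis) by nominal size (x axis), CT-26 in red and Colon 26 in blue. Points are tumors, black marks the mean and SD of 4 tumors; at 400 mm3 the ratio of Foxp3 to Cd3e lay between -2.61 and -1.10 in CT-26 and between -0.94 and 0.82 in Colon 26.

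Growth was followed by comparing tumors of 400 and 800 mm3 with those of 100 mm3 within each model. None of the 10 genes was called by edgeR in any of these 4 comparisons. In CT-26 the background was 1.14% of 15646 genes called at 400 mm3 and 0% at 800 mm3, and in Colon 26 it was 0.083% and 0.338% of 15666 genes. Unadjusted p-values under 0.05 were found for 3 and 0 of the 10 genes in CT-26 and for 2 and 2 in Colon 26. The share of all genes under that cut is not given here, so these counts cannot be read as an excess. DESeq2 called 1 of them, Tnfrsf9, in CT-26 at 400 mm3 and none in the other 3. Foxp3 at 400 mm3 was below 100 mm3 by -0.86 (SE 0.32, adjusted p = 0.12) in CT-26, without overlap of the groups, and by -1.17 (SE 0.50, adjusted p = 0.35) in Colon 26, with overlap. In CT-26, 6.7% of all genes tested had the 400 mm3 tumors wholly below those of 100 mm3. At 800 mm3 the values of Foxp3 were -0.37 (95% interval -1.04 to 0.30) and -1.18 (95% interval -2.27 to -0.10, adjusted p = 0.26). Tnfrsf9 had the opposite sign, at 1.5015 (SE 0.53, adjusted p = 0.11) in CT-26 at 400 mm3. In Colon 26 all 4 tumors of 800 mm3 lay above all of 100 mm3, by 0.82 (SE 0.18, adjusted p = 0.061), where 1.9% of all genes had an adjusted p of at most 0.1 at any fold and 13.2% had groups that did not overlap in either direction.
Whether growth changed the genes differently in the models was tested as an interaction. None of the 10 was called by edgeR or DESeq2 at 400 or 800 mm3, beside 0% and 0.0485% of 16487 genes, with an unadjusted p under 0.05 for 1 of them, Tnfrsf9 at 400 mm3. Its interaction was -1.33 (SE 0.59, 95% interval -2.55 to -0.11, adjusted p = 0.55).

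How the genes varied from tumor to tumor within a group was described by Pearson's r of log2 CPM, as deviations from the 6 group means, over the 24 tumors. These tumors share no library, but depth, cell content and the scarcity of counts act on all genes of a tumor together, and no p is given. Foxp3 was most like Ccr7, a chemokine receptor of naive T cells and migrating dendritic cells (r = 0.85), and next like Tnfrsf4 (r = 0.80), among 13508 genes with a mean of at least 1 CPM. Clec10a, Sdhaf4, Klk1, Tnfrsf18, Vasp and Wfdc17 followed at r = 0.80 to 0.78. Thus 2 of the 8 genes most like Foxp3 were members of the same set, OX40 at rank 2 and GITR at rank 6. Cd4 was at rank 29 (r = 0.72) and Ikzf2 at rank 94 (r = 0.66, but 0.40 without the 2 tumors farthest out in Foxp3, and 0.10 in CT-26 alone), while Icos, Cd27, Cd28 and Il2ra were at 0.57, 0.48, 0.43 and 0.35. The likeness was stronger in the 12 Colon 26 tumors than in the 12 CT-26 tumors, at r = 0.86 and 0.60 for Tnfrsf4 and 0.90 and 0.46 for Tnfrsf18. Without the 2 tumors farthest out in Foxp3, Colon 26 replicates 1 and 2 of 400 mm3, these values over both models were 0.71 and 0.70. Spearman's rho over the 24 tumors was 0.71 for Tnfrsf4 and 0.69 for Tnfrsf18. Tnfrsf4 and Tnfrsf18 were like each other at r = 0.83. Ikzf2 had a higher r with Cd27 (0.76) and Cd3e (0.71) than with Foxp3, and Tnfrsf18 reached 0.78 with Cd27 and 0.75 with Cd3e.
Cd27 and Cd28 had a higher r with Cd3e than with Foxp3. Their r with Cd3e was 0.94 and 0.87 (rho 0.90 and 0.82), at ranks 8 and 84 of 13508 genes, and it was at least 0.86 in each model alone. Icos and Il2ra were like Ctla4, at r = 0.86 and 0.91. For Il2ra this rested partly on CT-26 replicate 3 of 400 mm3, which held 11.8 CPM of Il2ra and 14.7 CPM of Ctla4, and r was 0.89 without it.

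**Figure D4:**
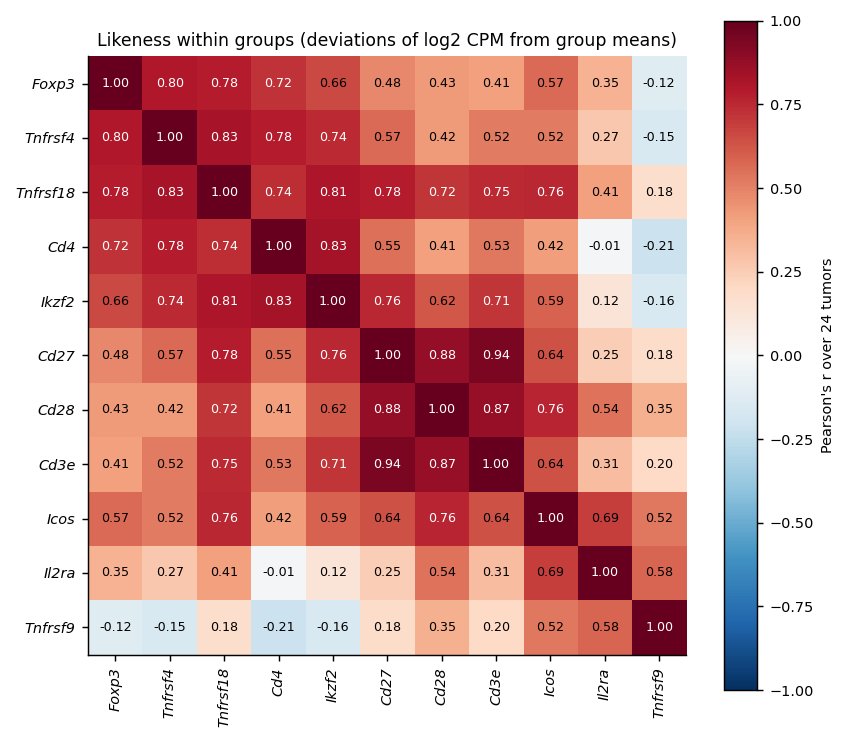
Pearson's r between the genes and Cd3e over 24 tumors (color and printed value), from log2 CPM as deviations from group means. Foxp3, Tnfrsf4, Tnfrsf18, Cd4 and Ikzf2 lie at 0.66 to 0.83 among themselves and Cd27, Cd28 and Cd3e at 0.87 to 0.94, but the sets are not separate, since Tnfrsf18 and Ikzf2 lie at 0.62 to 0.78 with the latter, and Tnfrsf9 lies between -0.21 and 0.58.

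The r of Tnfrsf9 was -0.12 with Foxp3, 0.20 with Cd3e and -0.06 with Ptprc, but 0.58 with Il2ra and 0.52 with Icos. The 8 genes most like it, which were looked up after its values had been seen, were Eno2, Appl2, Klhdc1, Ndrg1, Aldoa, Pnrc1, P4ha1 and Bnip3l, at r = 0.94 to 0.92. The likeness was stronger in CT-26, where r was 0.96 to 0.98, than in Colon 26, where it ranged from 0.43 (Aldoa) to 0.85 (Pnrc1). Eno2 and Aldoa encode enzymes of glycolysis, P4ha1 a hydroxylase of collagen and Bnip3l a protein of mitochondrial turnover. Eno2 was at 247, 236, 305 and 67.4 CPM in the 4 CT-26 tumors of 400 mm3, in which Tnfrsf9 was at 169, 141, 235 and 34.9 CPM, so both were lowest in replicate 4 and highest in replicate 3. With Eno2 the r was 0.97 in CT-26 and 0.70 in Colon 26, 0.86 without the 2 tumors farthest out in Tnfrsf9, and rho was 0.84. Eno2 was also present in culture, at 145 to 155 CPM in CT-26 and 35.7 to 38.1 CPM in Colon 26. CT-26 replicate 3 of 400 mm3 had low Ptprc, at 43.3 CPM against 79.8 to 123 CPM in the other 3, and the highest Tnfrsf9 of all tumors. It also had the highest Il2ra and Ctla4 of all tumors, at 11.8 and 14.7 CPM. Which cells made the Tnfrsf9 RNA was not tested.

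**Figure D5:**
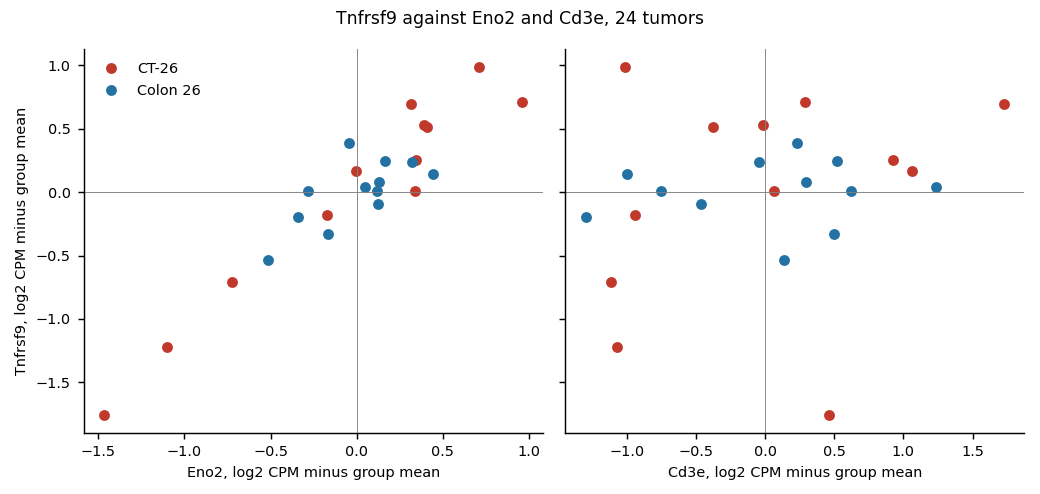
Tnfrsf9 (y axis) against Eno2 (left) and Cd3e (right, x axes) in 24 tumors, CT-26 in red and Colon 26 in blue, as log2 CPM minus the group mean. Points fall along a line for Eno2 (r = 0.94) and scatter for Cd3e (r = 0.20).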

How the data were processed

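RNA-seq was run on poly-A RNA of 24 tumors and 6 cultures in 8 groups, which were set from the labels for model, tissue and size. The authors deposited estimated counts per gene, not normalized, made in Array Studio on the Ensembl annotation (release 78), of which 22.6% of the non-zero values are not whole. They also deposited FPKM, scaled by library total and gene length. The aligner, the genome build and the use of strand are not given in the sources used here. The labels carry no replicate numbers, so replicates were numbered in accession order. Each of the 24 tumors has an exact volume of its own, from 103 to 963 mm3, so the tumor libraries come from separate tumors. Nothing in the labels says that the tumors came from separate mice, or that the cultures of a line were grown separately. P-values of tumor comparisons then measure the spread between tumors, and those of cultures a spread that may be technical in part.

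Rounding to whole numbers came first, since raw counts had been assumed when the tests were set. Models and sizes were compared in edgeR 4.0.16 (R 4.3.3) with the quasi-likelihood test, TMM factors and the package's default filter for low counts. P-values were adjusted by Benjamini-Hochberg over every gene tested, and a call needed an adjusted p up to 0.1 together with a log2 fold change of 1 or more in size. Each model comparison of 1 size used its 8 tumors, growth comparisons used the 12 tumors of a model, and the comparison over sizes and the interactions used all 24. Standard errors and 95% intervals came from the F statistic. Ratios used log2 CPM with a prior count of 2. The alternatives were DESeq2 1.42.0, other normalization factors, other filters, other thresholds, all tumors in 1 fit, limma 3.58.1 on log2(FPKM + 1) and log2(FPKM + 0.1), and leaving out each library. Other steps used Python 3.11.15, numpy 2.4.6, pandas 2.3.3 and scipy 1.17.1.

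All 10 genes are named, other genes where a list count refers to them, and the 8 genes most like Foxp3. The 8 most like Tnfrsf9 were added after its values had been seen. The genes, the lists beside them (ligands, interleukin-2 signaling, T cell, natural killer, B cell, macrophage, dendritic and mast cell genes, T helper factors, downstream signaling) and the tests were chosen with earlier results of these data known. Every pair of replicates differed by more than counting noise, with variances 3.01 to 80.5 times that of counting. In counts simulated for the 400 mm3 comparison (15007 genes), edgeR recovered 82.5% of genes changed by a log2 fold change of 1.5 and 94.9% of those changed by 2, and called 5 of 14811 unchanged genes. The changed genes were drawn at random from all genes tested and varied independently of each other. These shares therefore do not give the power for genes as scarce as most of the 10, which also vary together. Library totals limit only the error of counting, as reads had no molecular identifiers.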

Additional observations from a re-analysis of the deposited data

Results flagged for a closer look

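In 78 groups of 4 tumors tested for a value far from the other 3 (Dixon's test at the 95% level), 4 such values were found, and chance gives about 1 in 20. Cd4 was at 1.55 CPM in Colon 26 replicate 1 of 100 mm3, against 2.88 to 3.14 CPM in the other tumors of that group. Il2ra was at 11.8 CPM in CT-26 replicate 3 of 400 mm3, against 2.10 to 2.76 CPM. Icos was at 1.71 CPM in CT-26 replicate 4 of 800 mm3, against 3.85 to 4.08 CPM. The log2 ratio of Foxp3 to Cd4 was -1.70 in 1 Colon 26 tumor of 800 mm3, replicate 3, against -0.93 to -0.88 in the others.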

How the results depend on the processing

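No paired analysis was possible because the labels give the tumors and cultures no replicate numbers. The number of the 10 genes called is given first for each comparison. At 100 mm3 (1 called) it was 0 at an adjusted p of 0.05 and 0 with limma on log2(FPKM + 1) or log2(FPKM + 0.1), and 0 to 2 when 1 tumor was left out. At 400 mm3 (4) it was 1 with limma on log2(FPKM + 1), which understates the change of low genes. At 800 mm3 (0) it was 2 with no minimum fold change and 0 to 2 with 1 tumor left out. Over all sizes (1) it was 5 with no minimum fold change, 0 with limma on either FPKM scale and 0 to 2 with 1 tumor left out. In CT-26 tumors, 400 against 100 mm3 (0), it was 1 with DESeq2, 1 with at least 10 counts in every library and 0 to 2 with 1 tumor left out. In Colon 26 tumors it was 0 to 2 at 400 against 100 mm3 with 1 tumor left out, and 1 at 800 against 100 mm3 with no minimum fold change. In cultures (1) it was 2 with DESeq2, with no filter or with no minimum fold change, 0 with a minimum of 10 counts, 0 with limma on either FPKM scale, and 1 to 2 with 1 culture left out. With DESeq2 or no filter the added gene was Foxp3.

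At 400 mm3 the calls of Cd27, Cd28 and Tnfrsf9 held in all 8 fits that left out 1 tumor, and that of Icos in 3. At 100 mm3 Cd28 was called in 3 of 8 such fits. The log2 ratio of Foxp3 to Cd4 at 800 mm3, near 0, changed sign to 0.0055 with FPKM + 0.1, and ranged from -0.24 to 0.15 with 1 tumor left out. That of Cd8a to Foxp3 at 800 mm3 ranged from -0.28 to 0.59. Leaving out each tumor was extended to genes that are not among the 10 after the data had been seen, and Ctla4 at 100 mm3, not called, then ranged from -0.47 to 0.071. None of the calls of the 10 genes changed direction. The cause of these changes was not tested.

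The low counts of Foxp3, Cd27 and Cd28 limit what can be detected, and the wide intervals at single sizes leave room for 2-fold differences that were not called.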
